A study of Mus musculus with 17 samples.

Results

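Feedback inhibitors of the ERK and related MAP kinase pathways were followed in mouse CD8+ T cells that were Cblb knockout or wild type and were left unstimulated or stimulated through the T cell receptor. The 10 genes, chosen by name, were Dusp1, Dusp2, Dusp4, Dusp5, Dusp6 and Dusp10 of the dual-specificity phosphatases, Spry1 and Spry2 of the Sprouty family, and the Sprouty-related genes Spred1 and Spred2. They were 10 of the 53679 genes counted, and all 10 passed the filter on low counts, with 15 reads as the lowest count of any of them in any library. The 17 RNA sequencing libraries came from Cblb knockout (KO) cells that were unstimulated (3 libraries), given anti-CD3 (3) or given anti-CD3 with anti-CD28 (3, called both antibodies below), and from wild-type (WT) cells that were unstimulated (3), given anti-CD3 (3) or given both antibodies (2, replicates 2 and 3). The strain was C57BL/6 throughout, and the cells were purified CD8+ T cells of a tissue that the labels used here do not name. Stimulation is labelled as 12 h and no culture time is given for unstimulated cells, so stimulation and time in culture cannot be told apart. The labels used here do not state which part of Cblb was removed or how old the mice were. Separate animals are not stated for the replicates either, so each p-value measures the spread between libraries, and that spread may be technical.

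Anti-CD3 engages the T cell receptor complex and anti-CD28 adds the costimulatory signal, and Cblb encodes an E3 ubiquitin ligase known to restrain that signalling. The receptor activates Ras, which drives the kinases Raf, MEK and ERK, and active ERK induces genes whose products then switch the pathway off again. Dual-specificity phosphatases remove the activating phosphates from MAP kinases. Sprouty proteins act further upstream, between the receptor and Ras or Raf, and Spred proteins bring the Ras inactivator neurofibromin to the membrane.

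Levels are given in CPM, the reads of a gene scaled to equal library totals. Differences are log2 fold changes ± SE from the quasi-likelihood test of edgeR, with p-values adjusted by Benjamini-Hochberg over the 16246 genes tested. A difference was called at an adjusted p of at most 0.05. Libraries held 16635826 to 38269033 counts, and 160059285 in KO unstimulated replicate 2. Cblb had 63.9 to 68.8 CPM in KO and 139.5 to 159.7 CPM in WT unstimulated libraries, 78.4 to 83.8 CPM in KO and 180.4 to 190.1 CPM in WT anti-CD3 libraries, and 80.2 to 95.9 CPM in KO and 178.2 to 178.6 CPM in WT both-antibody libraries. It was lower in KO cells in each state, by -1.16 ± 0.08, -1.21 ± 0.08 and -1.05 ± 0.09 on the log2 scale (edgeR adjusted p = 1.15e-06, 5.66e-07 and 2.29e-05), and reads of it remained in every KO library. The 4 CD8 T cell markers summed to 1275 to 2541 CPM, while 3 CD4 T cell, 5 B cell, 6 myeloid and 3 NK cell markers summed to 1.23 to 3.52, 5.16 to 27.2, 4.81 to 14.9 and 2.64 to 10.6 CPM over all libraries. The CD8 T cell markers were lower in stimulated than in unstimulated libraries (1275 to 1335 against 2346 to 2541 CPM in KO cells, and 1366 to 1408 against 2246 to 2327 CPM in WT cells), and 4 of 4 were called lower with anti-CD3 in each genotype. B cell markers summed to 5.16 to 9.93 CPM in stimulated KO cells, against 19.0 to 27.2 CPM in unstimulated KO cells, and to 6.95 to 9.39 CPM in stimulated WT cells, against 17.1 to 19.9 CPM in unstimulated WT cells. Cd79b carried that sum and was the 1 of 5 called lower, while each of the other 4 averaged at most 1.51 CPM in any group. Myeloid markers were also lower in stimulated cells (4.81 to 5.99 CPM in KO and 5.46 to 8.18 CPM in WT cells) than in unstimulated ones (11.7 to 14.9 CPM in KO and 8.66 to 10.3 CPM in WT cells), and the NK marker Ncr1 was at 0 in every stimulated library. Between the genotypes, the sums of CD8 T cell markers did not overlap in any state, higher in KO unstimulated cells and lower in KO cells given anti-CD3 (1275 to 1335 CPM in KO and 1389 to 1408 CPM in WT cells) or both antibodies (1297 to 1332 CPM in KO and 1366 to 1371 CPM in WT cells). Myeloid markers did not overlap in unstimulated cells and, in the opposite order, with both antibodies (4.81 to 5.99 CPM in KO and 6.39 to 8.18 CPM in WT cells). NK markers did not overlap with anti-CD3 (2.64 to 4.33 CPM in KO and 4.67 to 6.85 CPM in WT cells), nor CD4 T cell markers with both antibodies (1.23 to 1.89 CPM in KO and 3.22 to 3.52 CPM in WT cells). The part of these cells in the results was not tested. In such bulk samples fewer cells of a type and less RNA per cell cannot be told apart.

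Library levels also tilted with GC content, and this tilt moved with the genotype. For each library, the median log2 deviation from the mean of all libraries was taken over protein-coding genes with 56% GC or more, and the median over those with 40% GC or less was subtracted. The tilt was 0.16 to 1.15 in KO and -0.75 to -0.31 in WT unstimulated libraries, 0.10 to 0.24 in KO and -0.41 to -0.11 in WT anti-CD3 libraries, and -1.15 to 0.36 in KO and 0.52 to 0.57 in WT both-antibody libraries. The KO and WT ranges did not overlap in any of the 3 states, and their order was turned round with both antibodies. The genes described here run from 41.2% GC (Spred1) to 59.2% GC (Dusp2), so for them values with a correction for this trend are given wherever it changed a call.

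**Figure D1:**
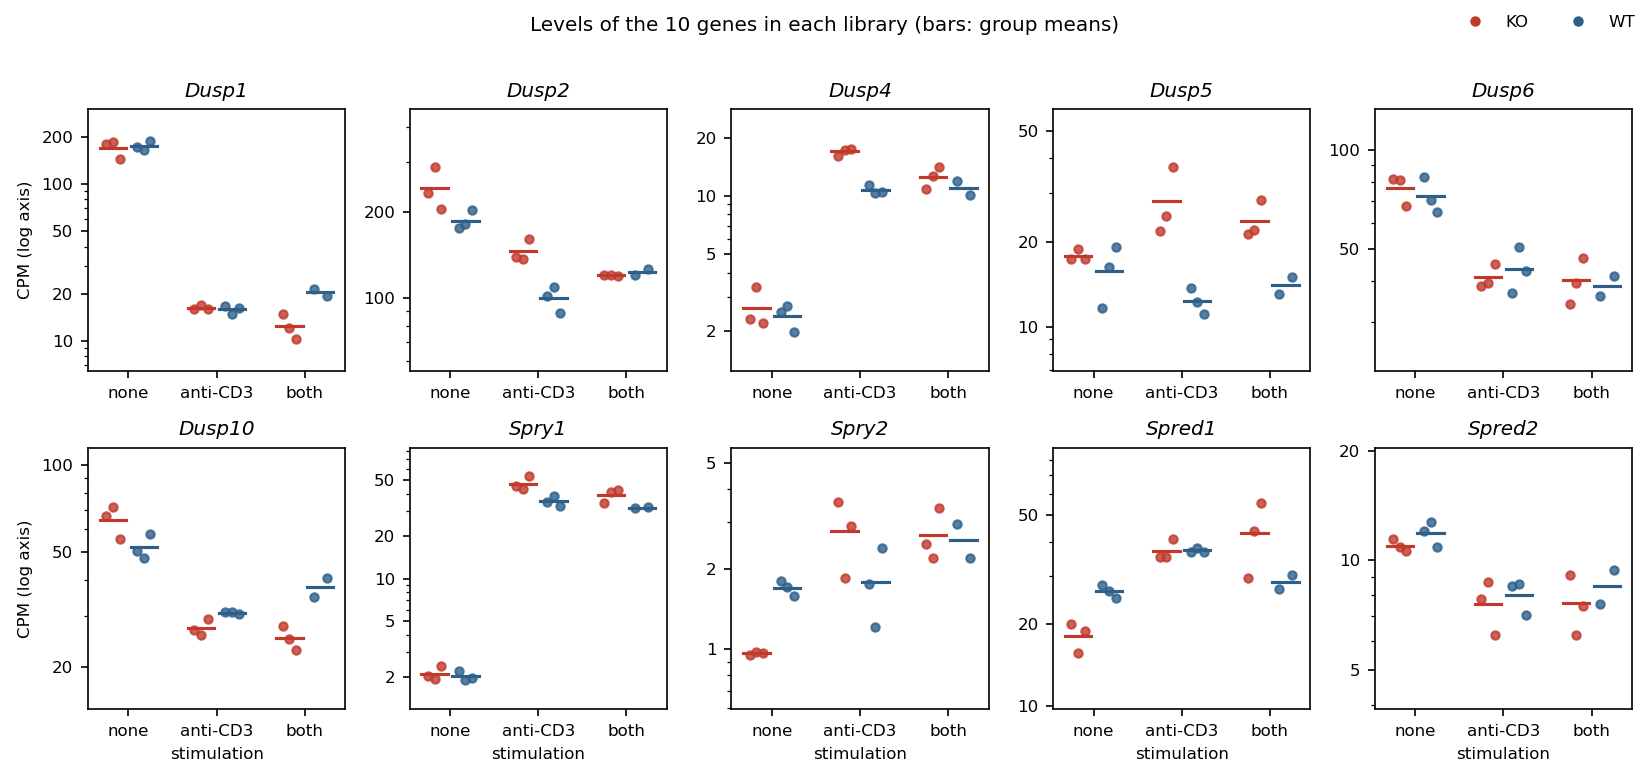
CPM of each of the 10 genes in every library (points, log axis) with group means (bars), KO left of WT in unstimulated cells and cells given anti-CD3 or both antibodies. Dusp1 lies between 10.3 and 21.5 CPM in all stimulated libraries and between 145 and 187 CPM in all unstimulated ones, while Spry1 lies between 31.4 and 53.0 CPM in stimulated and between 1.90 and 2.39 CPM in unstimulated libraries.

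Per kilobase of annotated exon, Dusp2 was the most abundant of the 10 in every group. In unstimulated cells Dusp2 averaged 121 ± 20.7 CPM per kb in KO and 93.5 ± 7.57 in WT cells (SD, n = 3 each), followed by Dusp1 at 51.3 ± 6.43 in KO and 52.9 ± 3.36 in WT cells, Dusp6 and Dusp10. Spry1, Spry2 and Dusp4 were then the 3 lowest, each under 1 CPM per kb. With anti-CD3 Dusp1 took rank 8 in KO and rank 7 in WT cells, at 4.92 ± 0.174 CPM per kb in KO and 4.84 ± 0.287 CPM per kb in WT cells. Spry1 by then took rank 2 in KO cells, at 16.2 ± 1.83 CPM per kb, and rank 3 in WT cells, at 12.1 ± 1.002 CPM per kb. In WT cells Dusp6 (13.9 ± 2.19), Spry1 and Dusp10 (10.1 ± 0.105 CPM per kb) were close neighbours in that order.

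From unstimulated to stimulated cells the genes moved in opposite directions, and stimulation and time in culture cannot be told apart here. With anti-CD3, 5 of the 10 rose and 5 fell in KO cells, where 19.6% and 17.3% of all tested genes did, and 3 rose and 5 fell in WT cells, where 11.3% and 13.1% of all genes did. With both antibodies 4 rose and 5 fell in KO cells, where 23.0% and 22.5% of all genes did, and 2 rose and 5 fell in WT cells, where 17.8% and 16.3% of all genes did. Dusp1, Dusp2, Dusp6, Dusp10 and Spred2 were the 5 that fell in each of these 4 comparisons, and Dusp4 and Spry1 were the 2 that rose in each. The comparisons within a genotype share their unstimulated libraries.

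Dusp1 encodes a nuclear phosphatase of p38, JNK and ERK, and it is an immediate early gene. It lies on GRCm38 chromosome 17 (26505590 to 26562128, minus strand, ENSMUSG00000024190, protein coding). Its upstream sequence is shown because Dusp1 was the gene that fell most, and because it holds a cyclic AMP response element, TGACGTCA, in capitals, bases 143 to 136 before the RefSeq start. This 8-base element, searched on both strands, occurs in 1.55% of 32851 RefSeq windows of 250 bases upstream of a gene's start. The sequence is from RefSeq (GRCm38.p6, chr17:26508520-26508722, minus strand) and stops where the first exon of a shorter GENCODE transcript begins. A longer annotated transcript starts further upstream, so the window lies inside the annotated span of the gene.
Dusp1 upstream: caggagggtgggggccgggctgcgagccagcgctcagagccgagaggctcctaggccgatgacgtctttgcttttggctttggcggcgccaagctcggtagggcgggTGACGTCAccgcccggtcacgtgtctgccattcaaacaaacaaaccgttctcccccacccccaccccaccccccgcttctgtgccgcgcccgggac
Dusp1 had 15.9, 16.9 and 16.004 CPM in KO cells given anti-CD3 and 14.9, 12.1 and 10.3 CPM in KO cells given both antibodies, against 179.6, 185 and 145 CPM in unstimulated KO cells. WT cells held 16.8, 15.0 and 16.3 CPM with anti-CD3 and 21.5 and 19.3 CPM with both antibodies, against 173, 165 and 187 CPM unstimulated. Every stimulated library was thus far below every unstimulated one, in both genotypes. With anti-CD3 the log2 fold change was -3.39 ± 0.13 in KO and -3.45 ± 0.13 in WT cells, a 10.5-fold and a 10.95-fold lower level (edgeR adjusted p = 2.36e-12 and 1.98e-12). With both antibodies the log2 fold change was -3.77 ± 0.13 in KO and -3.10 ± 0.15 in WT cells (edgeR adjusted p = 7.43e-13 and 9.16e-11). The annotated gene overlaps Ergic1 on the other strand (group means of 14.2 to 22.9 CPM). The strand setting of the counting is not stated, so reads in the overlap are uncertain.

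Dusp10, a phosphatase mainly of p38 and JNK (chromosome 1, 184013302 to 184075636, plus strand), fell in all 4 comparisons with unstimulated cells. It had 26.8, 25.8 and 29.4 CPM in KO cells given anti-CD3 and 27.7, 25.1 and 22.9 CPM in KO cells given both antibodies, against 66.5, 71.9 and 55.3 CPM in unstimulated KO cells. WT cells had 31.0, 31.0 and 30.5 CPM with anti-CD3 and 34.8 and 40.8 CPM with both antibodies, against 50.5, 47.6 and 57.8 CPM unstimulated. No stimulated library reached the level of an unstimulated one. Dusp10 overlaps the low 1700056E22Rik (0.843 to 3.16 CPM as group means) on the other strand. The log2 fold change was -1.24 ± 0.11 in KO and -0.75 ± 0.11 in WT cells with anti-CD3, and -1.36 ± 0.11 in KO and -0.46 ± 0.13 in WT cells with both antibodies (edgeR adjusted p 1.02e-07 to 0.0106). The last of these was not called without WT both-antibody replicate 2 (-0.35, edgeR adjusted p = 0.137).

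Dusp6, a cytoplasmic phosphatase of ERK (chromosome 10, 99263231 to 99267489, plus strand), had 38.8, 39.6 and 45.1 CPM in KO cells given anti-CD3, against 81.6, 80.9 and 67.7 CPM in unstimulated KO cells. In WT cells the values were 36.9, 50.6 and 43.1 CPM with anti-CD3, against 82.8, 70.4 and 64.7 CPM unstimulated. Both-antibody libraries held 34.2 to 47.1 CPM in KO and 36.1 to 41.5 CPM in WT cells. Dusp6 therefore lay lower in every stimulated than in every unstimulated library, with log2 fold changes of -0.93 to -0.74 over the 4 comparisons (edgeR adjusted p 4.59e-05 to 0.000660), and its ranges in KO and WT cells overlapped in each state.

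Dusp2, a nuclear phosphatase that is itself induced early in activated lymphocytes (chromosome 2, 127336159 to 127338376, plus strand), had 139, 137 and 162 CPM in KO cells given anti-CD3, against 235, 288 and 206 CPM in unstimulated KO cells. WT cells held 102, 109 and 88.6 CPM with anti-CD3, against 176, 181 and 204 CPM unstimulated. Stimulated libraries were again below the unstimulated ones of their genotype. The log2 fold change with anti-CD3 was -0.74 ± 0.11 in KO and -0.90 ± 0.11 in WT cells (edgeR adjusted p = 7.65e-05 and 1.59e-05). With both antibodies it was -1.02 ± 0.11 in KO cells, not called with the GC correction (-0.33, adjusted p = 0.184), and -0.60 ± 0.13 in WT cells (edgeR adjusted p = 0.00229, or -1.36 and 0.000469 with the GC correction). The larger negative value was in KO cells without the correction and in WT cells with it.

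Spred2, of the Sprouty-related inhibitors (chromosome 11, 19924375 to 20024026, plus strand), fell to 6.23 to 8.72 CPM in KO cells given anti-CD3, against 10.6 to 11.5 CPM in unstimulated KO cells, and to 7.07 to 8.58 CPM in WT cells given anti-CD3, against 10.9 to 12.8 CPM in unstimulated WT cells. With both antibodies it lay at 6.23 to 9.10 CPM in KO and 7.58 to 9.40 CPM in WT cells. Over the 4 comparisons the log2 fold change lay between -0.57 and -0.49 (edgeR adjusted p 0.0132 to 0.0461). They were near the threshold. The anti-CD3 calls were lost without KO anti-CD3 replicate 3 in KO cells (adjusted p = 0.0816), and without WT anti-CD3 replicate 3 or WT unstimulated replicate 2 in WT cells (adjusted p = 0.0712 and 0.0568). The both-antibody call was lost in KO cells without KO both-antibody replicate 2 (adjusted p = 0.0781) and with the GC correction (0.0508), and stood in 8 of 17 fits that each left out 1 library in WT cells (adjusted p 0.0285 to 0.32), and it was lost there with no filter on low counts (0.0963).

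Spry1 rose most of the 10. It encodes a Sprouty inhibitor (chromosome 3, 37639947 to 37644598, plus strand, ENSMUSG00000037211), and its RefSeq upstream window (GRCm38.p6, chr3:37639697-37639946, plus strand) is shown for comparison with that of Dusp1, since both genes moved strongly and in opposite directions. None of 5 motifs searched on both strands was found in it. These were TGACGTCA, the AP-1 motif TGANTCA (in 6.75% of all windows), the ETS motif CCGGAA (12.0%), the NFAT motif TGGAAA (18.6%) and the CArG box (1.47%), so it has no capitals. The windows of Dusp2, Dusp6, Dusp10 and Spred2, which fell like Dusp1, held none of the 5 either, nor did those of Spred1 and Spry2.
Spry1 upstream: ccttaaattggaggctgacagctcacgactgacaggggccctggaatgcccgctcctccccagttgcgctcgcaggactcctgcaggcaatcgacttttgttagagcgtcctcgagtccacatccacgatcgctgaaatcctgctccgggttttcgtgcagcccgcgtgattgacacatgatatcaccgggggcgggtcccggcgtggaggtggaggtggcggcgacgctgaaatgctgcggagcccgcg
Spry1 had 45.3, 42.8 and 53.0 CPM in KO cells given anti-CD3 and 34.3, 41.0 and 42.2 CPM in KO cells given both antibodies, against 2.02, 1.94 and 2.39 CPM in unstimulated KO cells. WT cells had 34.8, 38.2 and 32.4 CPM with anti-CD3 and 31.4 and 31.9 CPM with both antibodies, against 2.20, 1.90 and 1.98 CPM unstimulated. The lowest stimulated library thus exceeded the highest unstimulated one by more than 10 times. With anti-CD3 the log2 fold change was 4.51 ± 0.14 in KO and 4.11 ± 0.14 in WT cells, a 22.8-fold and a 17.2-fold higher level (edgeR adjusted p = 2.11e-13 and 7.18e-13), and with both antibodies 4.25 ± 0.14 in KO and 3.95 ± 0.14 in WT cells (3.48e-13 and 3.42e-12). Gm42922, on the other strand of Spry1, had at most 13 reads in a library.

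Dusp4, a nuclear phosphatase closely related to Dusp1 (chromosome 8, 34807297 to 34819894, plus strand), moved against Dusp1. It had 16.1, 17.3 and 17.5 CPM in KO cells given anti-CD3 and 10.8, 12.6 and 14.1 CPM in KO cells given both antibodies, against 2.30, 3.38 and 2.20 CPM in unstimulated KO cells. WT cells had 11.4, 10.3 and 10.5 CPM with anti-CD3 and 11.8 and 10.1 CPM with both antibodies, against 2.496, 2.699 and 1.98 CPM unstimulated. All stimulated libraries were above all unstimulated ones. The log2 fold change with anti-CD3 was 2.62 ± 0.17 in KO and 2.15 ± 0.18 in WT cells, and with both antibodies 2.18 ± 0.17 in KO and 2.18 ± 0.19 in WT cells (edgeR adjusted p 4.59e-09 to 3.39e-07).

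The other 3 genes were called higher with anti-CD3 in KO cells, and of these Spred1 alone was called in WT cells. Spred1, an inhibitor of Ras activation (chromosome 2, 117121374 to 117182279, plus strand), had 35.0, 35.2 and 40.9 CPM in KO cells given anti-CD3, against 19.9, 15.6 and 18.8 CPM in unstimulated KO cells, and 36.8, 37.99 and 36.7 CPM in WT cells given anti-CD3, against 27.7, 26.3 and 25.0 CPM in unstimulated WT cells. The ranges of the genotypes overlapped with anti-CD3, while the unstimulated KO libraries lay under the unstimulated WT ones. The log2 fold change with anti-CD3 was 1.04 ± 0.16 in KO cells (edgeR adjusted p = 8.85e-05) and 0.50 ± 0.16 in WT cells (0.0314), the second lost when any 1 of the 6 WT libraries compared was left out (adjusted p 0.0537 to 0.0953). With both antibodies it was 1.26 ± 0.16 in KO cells and 0.11 ± 0.18 in WT cells (edgeR adjusted p = 1.42e-05 and 0.664), and the WT value was called with the GC correction (0.33, adjusted p = 0.0306).

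Spry2, a Sprouty gene of rank 9 or 10 among the 10 per kilobase in every group (chromosome 14, 105891947 to 105896819, minus strand), had 3.58, 1.86 and 2.91 CPM in KO cells given anti-CD3 and 2.497, 2.20 and 3.40 CPM in KO cells given both antibodies, against 0.955, 0.978 and 0.9702 CPM in unstimulated KO cells, where it rested on 17, 148 and 15 reads. In WT cells it had 1.76, 1.21 and 2.41 CPM with anti-CD3 and 2.96 and 2.20 CPM with both antibodies, against 1.82, 1.71 and 1.58 CPM unstimulated. All stimulated KO libraries lay above the unstimulated KO ones, while the WT ranges with anti-CD3 and unstimulated overlapped. The log2 fold change in KO cells was 1.53 ± 0.29 with anti-CD3 and 1.47 ± 0.29 with both antibodies (edgeR adjusted p = 0.000471 and 0.000652). The WT values were 0.06 ± 0.28 and 0.59 ± 0.31 (edgeR adjusted p = 0.909 and 0.148).

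Dusp5, a nuclear phosphatase specific for ERK (chromosome 19, 53529109 to 53542431, plus strand, ENSMUSG00000034765), is described with its upstream sequence because it differed most between the genotypes after stimulation. The RefSeq sequence (GRCm38.p6, chr19:53528895-53529108, plus strand) holds 2 adjacent CArG boxes, the motif bound by serum response factor, in capitals, at bases 82 to 73 and 72 to 63 before the RefSeq start. It stops where the GENCODE exon begins, so the last 36 bases before the RefSeq start are left out. A CArG box occurs in 1.47% of the 32851 windows, and among the 9 of the 10 genes with a window Dusp5 was the one that had it. A match is a string of letters and does not show binding.
Dusp5 upstream: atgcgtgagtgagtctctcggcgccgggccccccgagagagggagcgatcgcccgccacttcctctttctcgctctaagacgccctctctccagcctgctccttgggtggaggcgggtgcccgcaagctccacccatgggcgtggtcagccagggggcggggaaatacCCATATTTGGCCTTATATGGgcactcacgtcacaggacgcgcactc
Dusp5 had 22.0, 24.8 and 37.2 CPM in KO cells given anti-CD3 and 21.4, 22.1 and 28.2 CPM in KO cells given both antibodies, against 17.4, 18.9 and 17.5 CPM in unstimulated KO cells. In WT cells it had 13.8, 12.3 and 11.1 CPM with anti-CD3 and 13.1 and 15.0 CPM with both antibodies, against 11.7, 16.3 and 19.3 CPM unstimulated. Stimulated KO libraries were thus above their unstimulated ones, and the WT groups overlapped. With anti-CD3 it rose by 0.65 ± 0.19 in KO cells (edgeR adjusted p = 0.0126), a call that rested on KO anti-CD3 replicate 3, the highest library (0.38 without it, adjusted p = 0.121), and had -0.34 ± 0.19 in WT cells (0.22). With both antibodies it had 0.41 ± 0.19 in KO cells (edgeR adjusted p = 0.0891, or 0.96 and 0.00749 with the GC correction, and 0.0477 without KO anti-CD3 replicate 3) and -0.16 ± 0.22 in WT cells (0.601, or -0.65 and 0.106 with the GC correction).

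**Figure D2:**
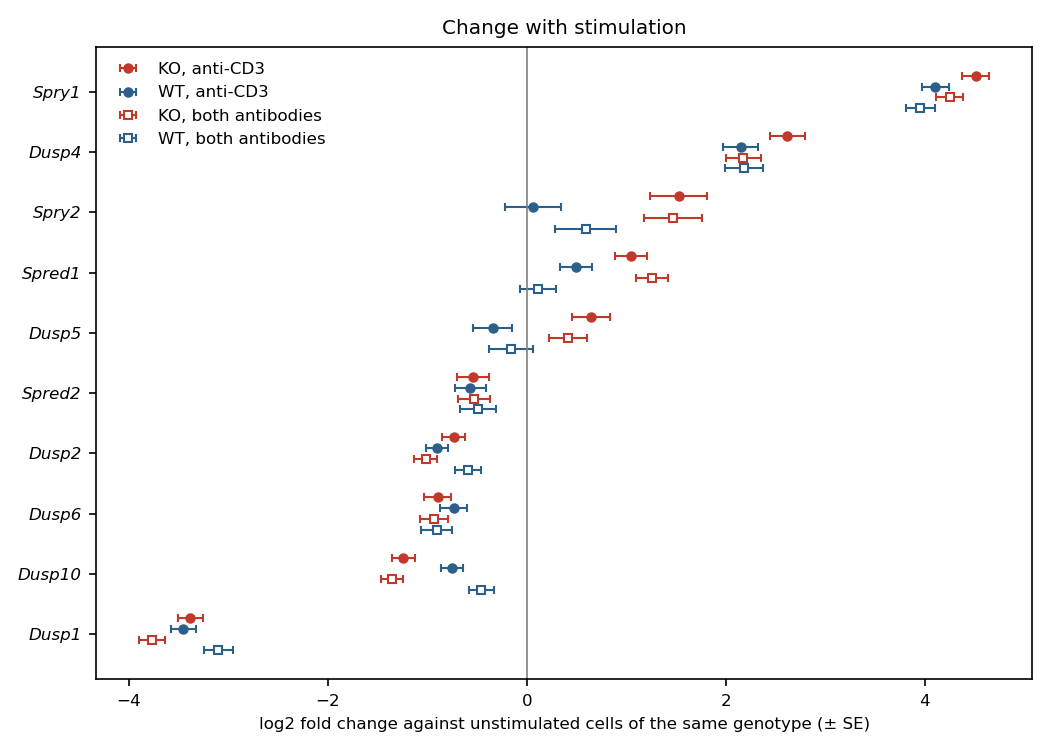
Log2 fold change (± SE) of each gene against unstimulated cells of the same genotype, for KO (red) and WT cells (blue) given anti-CD3 (filled circles) or both antibodies (open squares). Spry1 lies at 3.95 to 4.51 and Dusp1 at -3.77 to -3.10 in all 4 comparisons. Spry1, Dusp5, Spred1 and Spry2 lie further to the right in KO than in WT cells with either stimulation. By edgeR that difference between the genotypes was called for Spred1 with both antibodies, and for none of them with anti-CD3 alone.

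Comparing the genotypes after anti-CD3, in KO cells 4 of the 10 genes were higher (Dusp2, Dusp4, Dusp5 and Spry1), where 10.5% of all genes were called higher, and 0 of the 10 were lower by edgeR or by DESeq2, where 4.80% were by edgeR. The libraries behind these values are those given above, and for each of the 4 genes all 3 KO libraries lay above all 3 WT libraries. Here and in the other states, such separation comes from the same libraries as the tests, and its share over all genes is not given. Dusp5 averaged 28.0 ± 8.08 CPM in KO cells and 12.4 ± 1.33 CPM in WT cells (SD, n = 3 each), a log2 fold change of 1.19 ± 0.19 or 2.28-fold (edgeR adjusted p = 0.000731). It was called in all 17 fits that left out 1 library (0.92 to 1.33) and with the GC correction (0.85, adjusted p = 0.0267). Dusp4 averaged 16.9 ± 0.752 CPM in KO cells and 10.7 ± 0.562 CPM in WT cells (0.66 ± 0.16, edgeR adjusted p = 0.00936), Dusp2 146 ± 13.8 CPM in KO cells and 100.0 ± 10.5 CPM in WT cells (0.55 ± 0.11, 0.00412), and Spry1 47.0 ± 5.31 CPM in KO cells and 35.1 ± 2.91 CPM in WT cells (0.42 ± 0.11, 0.0151). These 3 were not called with the GC correction, under which Dusp4 had 0.36 (adjusted p = 0.155), Dusp2 0.09 (0.8) and Spry1 0.09 (0.804). Dusp4 was also lost without KO anti-CD3 replicate 3 (adjusted p = 0.0512), and Spry1 without KO anti-CD3 replicate 3 (0.12) or WT anti-CD3 replicate 3 (0.083). The 4 genes called were the 4 of highest GC content among the 10, at 55.99% to 59.2%.

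The other 6 genes were not called with anti-CD3. Spry2 had the next largest difference, 0.65 ± 0.27 (edgeR adjusted p = 0.118), with overlapping libraries. Dusp1, Spred1, Dusp6, Spred2 and Dusp10 had values between -0.17 and 0.02. For Dusp10 the 3 KO libraries, at 25.8 to 29.4 CPM, lay under the 3 WT libraries, at 30.5 to 31.0 CPM, with a difference that missed the threshold (-0.17 ± 0.11, edgeR adjusted p = 0.328). Over all genes with anti-CD3, the 1713 called higher and 779 called lower became 1428 and 1070 with relative log expression scaling and 1729 and 1875 with the GC correction.

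**Figure D3:**
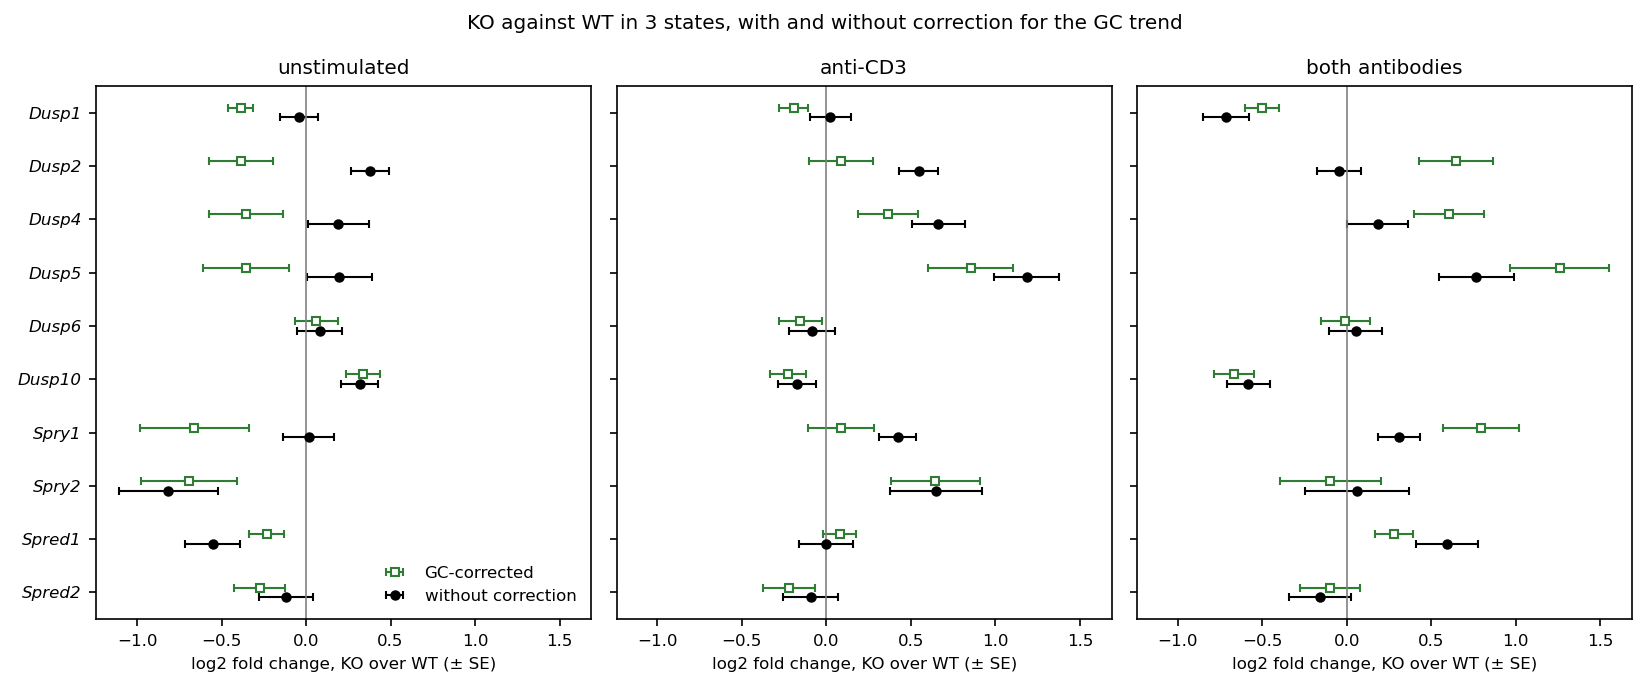
Log2 fold change (± SE) of KO over WT cells for each gene in unstimulated cells and with anti-CD3 or both antibodies, without correction (black circles) and with the GC correction (green squares). With anti-CD3 Dusp5 lies at 1.19 without and at 0.85 with the correction, while Dusp2 lies at 0.55 without and at 0.09 with it.

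With both antibodies, 2 genes were higher in KO than in WT cells, where 9.84% of all genes were, and 2 were lower, where 6.30% of all genes were. Dusp5 was again higher, at 23.9 ± 3.78 CPM in KO (n = 3) and 14.0 ± 1.34 CPM in WT cells (n = 2), a log2 fold change of 0.77 ± 0.22 (edgeR adjusted p = 0.0287, and 1.26 and 0.011 with the GC correction). Spred1 was higher at 42.9 ± 13.0 CPM in KO cells and 28.4 ± 2.42 CPM in WT cells, with 29.5, 44.0 and 55.4 CPM in KO cells, against 26.7 and 30.2 CPM in WT cells, so the groups overlapped (0.59 ± 0.18, edgeR adjusted p = 0.0376, or 0.28 and 0.0972 with the GC correction). Dusp1 and Dusp10 were lower in KO cells, with every KO library under both WT libraries. Dusp1 averaged 12.4 ± 2.33 CPM in KO cells and 20.4 ± 1.598 CPM in WT cells (-0.71 ± 0.14, edgeR adjusted p = 0.00506), and Dusp10 25.3 ± 2.42 CPM in KO cells and 37.8 ± 4.20 CPM in WT cells (-0.58 ± 0.13, 0.00851). Both were called with the GC correction as well (-0.50 and -0.67, adjusted p = 0.00213 and 0.00113), which also called Dusp4 (0.60, 0.0495) and Spry1 (0.79, 0.0268) higher in KO cells. Without correction Dusp4 had 0.18 ± 0.18 and Spry1 0.31 ± 0.12 (edgeR adjusted p = 0.506 and 0.0938, the second 0.0182 without KO both-antibody replicate 1). Dusp2 (-0.05), Dusp6 (0.05), Spry2 (0.06) and Spred2 (-0.16) were not called (adjusted p 0.58 to 0.912).

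These both-antibody calls rest on 2 WT libraries and on the spread shared with the other groups. When the 5 both-antibody libraries were fitted by themselves, none of the 4 genes was called (adjusted p 0.23 to 0.264). Dusp1 and Dusp10 were lost without WT both-antibody replicate 2 (adjusted p = 0.0818 and 0.0596) or replicate 3 (0.0706 and 0.136). Dusp5 was lost without KO both-antibody replicate 2 or 3 (0.0538 and 0.11) and without WT both-antibody replicate 2 or 3 (0.211 and 0.134). Spred1 was lost without the same 4 libraries (0.0917, 0.172, 0.251 and 0.146) and without WT anti-CD3 replicate 3 (0.0503).

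In unstimulated cells, 2 genes were higher in KO than in WT cells, where 15.3% of all genes were, and 2 were lower, where 10.1% were. Spry2 and Spred1 were the lower ones, and for both of them all KO libraries lay below all WT libraries. Spry2 averaged 0.968 ± 0.0120 CPM in KO cells and 1.70 ± 0.116 CPM in WT cells (-0.82 ± 0.29, edgeR adjusted p = 0.0494), and Spred1 18.1 ± 2.26 CPM in KO cells and 26.3 ± 1.36 CPM in WT cells (-0.55 ± 0.16, 0.0232). Spry2 there rested on 15 to 148 reads a library in KO cells. Dusp2 was higher at 243 ± 41.5 CPM in KO cells and 187 ± 15.2 CPM in WT cells (0.38 ± 0.11, edgeR adjusted p = 0.0241), and Dusp10 at 64.6 ± 8.47 CPM in KO cells and 51.9 ± 5.25 CPM in WT cells (0.32 ± 0.11, 0.0427), the second with overlapping libraries. With the GC correction none of the 4 was called, the sign of Dusp2 turned (-0.38, adjusted p = 0.262), and Dusp1 was called lower in KO cells (-0.39, 0.00645). The other 3 had -0.69 (Spry2, adjusted p = 0.153), -0.23 (Spred1, 0.186) and 0.34 (Dusp10, 0.0514) with it, and over all genes it left 549 called higher and 491 lower, against 2493 and 1641 without it. Without correction Dusp1 (-0.04), Dusp4 (0.19), Dusp5 (0.20), Dusp6 (0.08), Spry1 (0.01) and Spred2 (-0.12) were not called (edgeR adjusted p 0.457 to 0.954). Among fits that left out 1 library, Spry2 was called in 5 of 17 and Dusp10 in 6 of 17 (adjusted p 0.0359 to 0.168 and 0.0126 to 0.22). Dusp2 was lost without KO unstimulated replicate 2 (0.166) or WT unstimulated replicate 1 or 2 (0.104 and 0.064), and Spred1 without KO unstimulated replicate 2 (0.141) or WT unstimulated replicate 1 (0.089).

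**Figure D4:**
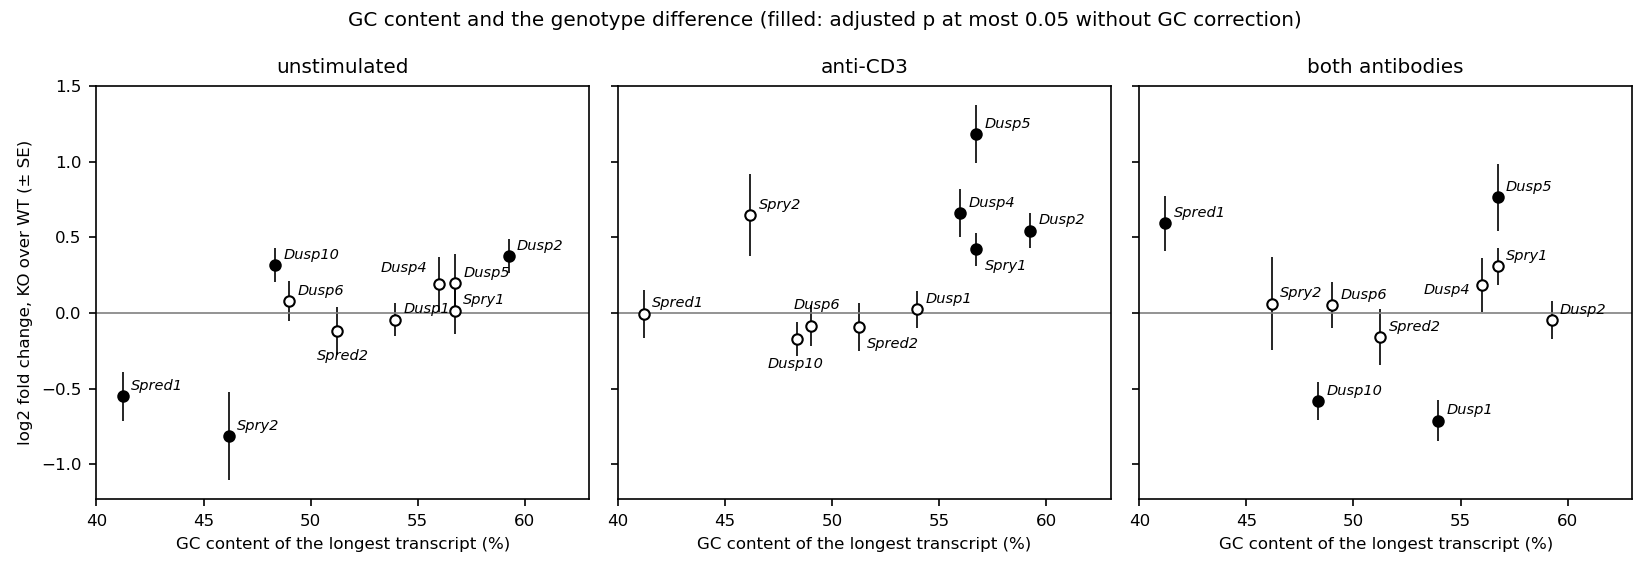
Log2 fold change (± SE) of KO over WT cells, without GC correction, against the GC content of each gene's longest transcript, in 3 states; filled points were called at an adjusted p of at most 0.05. With anti-CD3 the 4 filled points are the 4 genes of 55.99% to 59.2% GC, and in unstimulated cells the 2 genes called lower, Spry2 and Spred1, have the 2 lowest GC contents, 46.2% and 41.2%.

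Whether stimulation acted differently in the 2 genotypes was tested as an interaction. For both antibodies, the change in KO cells exceeded that in WT cells for 1 of the 10 genes, where 18.3% of all genes were called, and was lower for 2, where 19.2% were. The gene called higher was Spred1 (1.15 ± 0.25, edgeR adjusted p = 0.00417) and the genes called lower were Dusp10 (-0.90 ± 0.17, 0.00355) and Dusp1 (-0.67 ± 0.18, 0.00853). Spred1 and Dusp10 were called with the GC correction too (0.51 and -1.002, adjusted p = 0.0283 and 0.00156), and Dusp1 was not (-0.12, adjusted p = 0.588). Under that correction Dusp2 (1.03), Dusp4 (0.96), Dusp5 (1.61) and Spry1 (1.46) were called higher (adjusted p 0.0154 to 0.0359), while without it they had -0.42, -0.01, 0.57 and 0.29 (edgeR adjusted p 0.0586 to 0.988). The shares of all genes above are those without the correction, so the corrected calls cannot be read against them. Dusp2 was called lower without KO unstimulated replicate 3 or WT unstimulated replicate 3 (adjusted p = 0.0131 and 0.0432), and Dusp5 higher without WT unstimulated replicate 1 (0.0483). Dusp2 was also called lower with the filter of at least 1 CPM in 3 libraries (-0.44, adjusted p = 0.0435).

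For anti-CD3 alone the interaction called 0 of the 10 genes by edgeR, where 0.0492% of all genes were called higher and 0.00616% lower (5 of the 10 and 2399 of all genes had an unadjusted p under 0.05, and DESeq2 called 118 genes higher and 98 lower). The largest values were those of Spry2 (1.46 ± 0.40) and Dusp5 (0.99 ± 0.27), both with an edgeR adjusted p of 0.162, so a stronger induction in KO than in WT cells was not called for either. DESeq2 called Dusp5 (0.96, adjusted p = 0.0459), and the GC correction called Dusp10 (-0.56, 0.0481).

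Adding anti-CD28 to anti-CD3 changed none of the 10 genes by edgeR, in KO or in WT cells, where 0% of all genes were called higher and 0% lower in each genotype. At an unadjusted p under 0.05 there were 4 of the 10 in each genotype, among 1460 genes in KO and 3506 genes in WT cells. DESeq2 called none of the 10, and of all genes 0 genes in KO cells and 398 higher and 90 lower in WT cells. The differences of both antibodies over anti-CD3 ran from -0.44 (Dusp4) to 0.21 (Spred1) in KO cells and from -0.39 (Spred1) to 0.53 (Spry2) in WT cells. When the 5 WT libraries compared were fitted by themselves, Dusp1 (0.36), Dusp2 (0.32) and Dusp10 (0.30) were called higher and Spred1 (-0.38) lower with both antibodies (adjusted p 0.0035 to 0.0146). In KO cells Dusp1 was called lower without KO both-antibody replicate 1 (-0.54, adjusted p = 0.0376). The interaction of genotype with anti-CD28 called 0 of the 10 by edgeR, where 0% of all genes were called higher and 0.00616% lower (4 of the 10 and 4641 of all genes had an unadjusted p under 0.05, and DESeq2 called 1012 genes higher and 1368 lower, Dusp1 and Dusp2 among the lower). Its largest value was that of Dusp1 (-0.74 ± 0.18, edgeR adjusted p = 0.0607), followed by Spred1 (0.60 ± 0.24, 0.122) and Dusp2 (-0.59 ± 0.17, 0.065). Without KO both-antibody replicate 1, Dusp1, Dusp2, Dusp10 and Spred1 were called (adjusted p 0.0018 to 0.0391), and without KO unstimulated replicate 2, Dusp1 and Dusp2 were (0.0419 each).

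Among the 10 genes, log2 CPM over the 17 libraries ran together most for Dusp4 and Spry1 (Pearson r = 0.98) and in opposite directions most for Dusp1 and Spry1 (r = -0.99). Each r is a description, since stimulated and unstimulated libraries stood apart for all 3 genes. Of 9208 other protein-coding genes, Irf4 (r = 0.998), Tnfrsf9 and Xcl1 were most like Spry1, and Ccl1, Ccl4 and Tnfrsf9 were most like Dusp4 (r = 0.99 each), so Tnfrsf9, a costimulatory receptor gene, was near both. Arl4c and Hsd11b1 were among those most like Dusp1 (0.99 each), Zfp36, Eya2 and Arhgap30 most like Dusp10 (0.97 to 0.98), Prag1, Setd4 and Rftn1 most like Dusp2 (0.97 each), and Rps3a1, Cd8a and Poli most like Dusp6 (0.96 each). Spred1 was closest to Hif1a, Gabpb1 and Jak2 (0.98 each) and Spred2 to Ncoa1, Timp2 and Pik3cg (0.90 to 0.92). Dusp5 was closest to Npm3, Alyref and Enoph1 (0.93 to 0.94), and Spry2 to Pitpnb, Eif5b and Nhlrc2 (0.82 to 0.85), the loosest likeness of the 10.

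The kinases and targets around these inhibitors were described from 5 further lists. Of 15 ERK-inducible genes tested, 8 were higher and 0 lower by edgeR in KO than in WT cells given anti-CD3, where 10.5% and 4.80% of all genes were. The list median was 0.75, beside 0.04 over all genes, and was 0.45 with the GC correction. Ier3 (1.14 ± 0.22), Egr2 (0.58 ± 0.11), Fosb (1.29 ± 0.25) and Phlda1 (2.00 ± 0.42) were among them (edgeR adjusted p 0.00222 to 0.00424), while DESeq2 called 9 higher and 1 lower, and the GC correction 6 higher and 1 lower. Phlda1 there rested on 15 to 41 reads a library in KO and 6 to 11 in WT cells. With both antibodies 0 of the 15 were called by edgeR between KO and WT cells (4 at an unadjusted p under 0.05, and 0 by DESeq2). The GC correction called 1 higher and 0 lower there. The list median with both antibodies was 0.11 without and 0.40 with that correction. Against unstimulated cells, the list divided in direction. Of the genes named above, Fosb fell with anti-CD3 (-5.22 in KO and -6.00 in WT cells), and Phlda1 fell in WT cells (-2.43). Egr2 rose, by 3.02 in KO and 2.63 in WT cells. With anti-CD3, 5 of the 15 rose and 4 fell in KO cells, where 19.6% and 17.3% of all genes did, and 4 rose and 6 fell in WT cells, where 11.3% and 13.1% of all genes did. The transcription factor gene Egr2 rose with Spry1 and Dusp4, to 87.4 ± 6.16 CPM in KO cells given anti-CD3, against 10.7 ± 1.77 CPM in unstimulated KO cells, and to 58.5 ± 1.85 CPM in WT cells given anti-CD3, against 9.48 ± 1.34 CPM in unstimulated WT cells (n = 3 each). Fos fell with Dusp1, to 9.35 ± 1.52 CPM in KO cells given anti-CD3, against 466 ± 109 CPM in unstimulated KO cells, and to 5.56 ± 0.519 CPM in WT cells given anti-CD3, against 426 ± 36.3 CPM in unstimulated WT cells.

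The kinases themselves were also compared between the genotypes with anti-CD3, where edgeR called 10.5% of all genes higher and 4.80% lower. Of 15 Ras and ERK cascade genes, 1 was higher (the scaffold gene Ksr1, 0.85 ± 0.19, edgeR adjusted p = 0.00645) and 2 were lower in KO cells (the Ras activators Rasgrp1, -0.30 ± 0.07, and Sos1, -0.31 ± 0.10, adjusted p = 0.0102 and 0.0492). DESeq2 called 1 higher and 4 lower, and the GC correction 1 higher and 3 lower. Of 13 p38 and JNK cascade genes, 2 were higher, the p38 activator Map2k3 (0.93 ± 0.12, 0.000118) and the p38 substrate kinase Mapkapk2 (0.40 ± 0.11, 0.0244), and 0 were lower by edgeR. DESeq2 called 2 higher and 2 lower, and the GC correction 1 higher and 3 lower. None of 5 genes of Ras GTPase-activating proteins and none of 11 other dual-specificity phosphatase and Sprouty family genes tested was called by edgeR in that comparison. At an unadjusted p under 0.05 there were 0 and 2 of them, DESeq2 called 0 and 1, and the GC correction called 2 and 1 lower. With stimulation the other family members Dusp16 and Dusp22 rose and Dusp7 fell with anti-CD3 in each genotype (1.05, 0.89 and -0.66 in KO cells, and 0.72, 0.59 and -0.46 in WT cells). Map2k3 rose by 2.07 ± 0.12 in KO and by 1.55 ± 0.13 in WT cells, while Map2k6, also a p38 activator, fell by 1.95 ± 0.19 in KO and by 1.74 ± 0.19 in WT cells.

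In the other states the same lists were called as follows. Between unstimulated KO and WT cells, where 15.3% of all genes were called higher and 10.1% lower, 2 of 15 Ras and ERK cascade genes were higher and 7 lower (1 and 0 with the GC correction). Of 13 p38 and JNK cascade genes 3 were higher and 2 lower (0 and 1 with it), and of 15 ERK-inducible genes 2 were higher and 0 lower by edgeR or DESeq2 (0 and 1 with it). Of 5 genes of Ras GTPase-activating proteins 1 was higher and 2 were lower (0 and 0 with it). With both antibodies, where 9.84% of all genes were called higher and 6.30% lower, the Ras GTPase-activating protein genes Rasal3 (-0.74 ± 0.20) and Rasa3 (-0.39 ± 0.13) were lower in KO cells, and the family member Dusp12 (0.59 ± 0.16) was higher (edgeR adjusted p 0.0224 to 0.0476). These values stand beside the opposite GC tilts of the libraries in these states.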

How the data were processed

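Paired-end reads came from rRNA-depleted, stranded libraries of mouse CD8+ T cell RNA, per the labels' protocols. The authors deposited whole-number read counts per gene for each library, 53679 Ensembl identifiers, of which 24955 had 0 counts throughout. STAR 2.5.2, RSEM 1.3.0 and the build GRCm38 (mm10) are named in the submitters' processing notes. The sources used here state neither how the counts became whole numbers nor the strand setting. GENCODE annotation of GRCm38 matched 53650 identifiers and all 10 genes, and RefSeq (GRCm38.p6) gave upstream windows for 9 of the 10.

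Groups came from the labels. Counts were fitted in R 4.3.3 with edgeR 4.0.16 (filterByExpr by group, trimmed mean of M values scaling, robust quasi-likelihood, 6 group coefficients over all 17 libraries, common biological coefficient of variation 0.153), with Benjamini-Hochberg adjustment over the 16246 genes tested in each of 12 comparisons and a threshold of 0.05. Between replicates, counts gave a chi-square of 3.79 to 576 per gene, above sampling noise, the highest between KO unstimulated replicates 2 and 3. Such an excess can be technical and does not show that the replicates are separate animals. All 17 libraries were kept as separate samples. Depth limits precision most for Spry2 and, in unstimulated cells, Dusp4 and Spry1. Alternatives were relative log expression scaling, no filter, at least 1 CPM in 3 libraries, the compared groups alone, the replicate number as a block, a GC correction (offsets from a loess curve of span 0.3 per library), that correction with the block, leaving out the 2 libraries with the strongest GC tilt (replicate 3 of KO both antibodies and replicate 2 of KO unstimulated), DESeq2 1.42.0, and each library left out in turn. The fit was tested on simulated counts with known changes. Figures were drawn with matplotlib 3.10.9.

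The 10 genes and the lists were chosen with earlier results of these data known. All 10 are named in every comparison with unstimulated cells and between genotypes. Of each further list, counts are given with up to 4 called genes per direction by smallest adjusted p in a comparison described. Some are left out for length. For each gene the 3 genes of highest Pearson correlation over 17 libraries were found. Some results are not reported here.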

Additional observations from a re-analysis of the deposited data

Results flagged for a closer look

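For 3 of the 10 genes the change with both antibodies differed between the genotypes by the interaction test of edgeR's quasi-likelihood fit. Of all genes tested, 18.3% were called higher and 19.2% lower in that interaction, so such calls were not particular to these genes. The difference in log2 fold change, KO minus WT, was -0.90 for Dusp10, -0.67 for Dusp1 and 1.15 for Spred1. The log2 fold change of Dusp10 was -1.36 in KO and -0.46 in WT cells, that of Dusp1 -3.77 in KO and -3.10 in WT cells, and that of Spred1 1.26 in KO and 0.11 in WT cells. Over the fits that left out 1 library the values stayed between -1.03 and -0.78 for Dusp10, between -0.82 and -0.55 for Dusp1 and between 0.93 and 1.36 for Spred1, and all were called (highest adjusted p 0.0214, 0.0491 and 0.025). With the GC correction the values were -1.002, -0.12 and 0.51, and Dusp1 was not called. The GC tilt ran in opposite directions between KO and WT libraries in the unstimulated and both-antibody states, and beyond this correction its part in these differences was not tested.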

How the results depend on the processing

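The counts of the 10 genes called in the 4 comparisons with unstimulated cells stayed within 1.5 times under every alternative, and the counts between genotypes did not. KO against WT unstimulated, 4 genes were called, but 2 with no filter, with only the groups compared and with the replicate block, and 1 with the GC correction, with that correction and the block, and when the 2 libraries with the strongest GC tilt were left out. With anti-CD3, 4 became 1 with the GC correction, alone or with the block. With both antibodies, 4 became 0 with only the groups compared and 2 without the 2 libraries. For both antibodies over anti-CD3 in WT cells, 0 became 4 with only the groups compared and 3 without the 2 libraries. For the anti-CD3 interaction 0 became 1 with the GC correction, 2 with it and the block, and 1 with DESeq2. For the both-antibody interaction 3 became 6 with the GC correction, alone or with the block. For the anti-CD28 interaction 0 became 1 with no filter, 2 without the 2 libraries and 2 with DESeq2. The cause of these shifts was not tested. The share of all genes called under each setting is not given beside these counts, so they are not read as particular to the 10 genes. Leaving out 1 library gave 0 to 4 calls for KO against WT unstimulated, 2 to 4 with anti-CD3 and 0 to 5 with both antibodies. It gave 8 to 10 and 6 to 8 calls for anti-CD3 against unstimulated in KO and WT cells, and 8 to 10 and 5 to 7 for both antibodies. It gave 0 to 1 and 0 to 0 calls for both antibodies over anti-CD3 in KO and WT cells, and 0 to 0, 3 to 4 and 0 to 4 for the anti-CD3, both-antibody and anti-CD28 interactions. Without 1 of the 2 WT both-antibody libraries, the one left was assumed to vary like the other groups.

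Values that changed sign and were called in either fit were those of Dusp2 in unstimulated cells (-0.38 with the GC correction, -0.39 with it and the block) and, in the both-antibody interaction, of Dusp2 (1.03 and 1.07) and Dusp4 (0.96 and 1.03) under the same settings. Replicate numbers are shared between groups. Deviations from the group means correlated over 0.1 in 11 of 40 same-numbered pairs of libraries (median 0.04, from -0.41 to 0.55). They did so in 17 of 80 pairs of other numbers (median -0.005). The GC tilt of each library also enters these deviations, so they cannot exclude pairing. The numbers were not taken to pair the libraries in the main fit. With the GC correction and the block together, Dusp5 was called higher in the anti-CD3 interaction (1.16, adjusted p = 0.0199) and lower in WT cells given both antibodies than in unstimulated WT cells (-0.76, 0.00907). With the block alone, Spred2 was not called in that WT comparison (-0.43, 0.0784). With the replicate block as such, the counts changed only as given above and otherwise stayed within 1.5 times.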
